A study of Mus musculus with 8 samples.

Results

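The laser injury of Nr4a1-/- mouse eyes was followed here through the immune cells of the posterior eye, by setting 1 library of laser-treated Nr4a1-/- eyes against 1 library of Nr4a1-/- control eyes. The members are the cell barcodes of both libraries in which 200 to 5000 genes were detected and mitochondrial transcripts made up no more than 15%. There were 3669 such cells (1649 laser and 2020 control) of 11223 in the whole series. NR4A1 is an orphan nuclear receptor that is switched on quickly by stimulation and is required for the survival of non-classical monocytes, the patrolling blood monocytes with little Ly6C. Focal laser burns break the membrane under the retinal pigment epithelium (RPE) and are followed by choroidal neovascularization (CNV), the ingrowth of new vessels that models neovascular macular degeneration. Macrophages and microglia gather at such lesions, where they clear debris and release factors that act on vessels.

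All mice were females of 10 to 12 weeks. Laser-treated Nr4a1-/- eyes came from 11 to 12 mice, received 8 burns per eye and were taken on day 3. Control Nr4a1-/- eyes came from 22 mice with no laser, although their treatment label reads sham. Eyes of a group were pooled, CD45+ cells (leukocytes) were enriched from retina and choroid, and live cells stained for CD45 and CD11b were sorted. The study's methods give the germline Nr4a1 allele tm1Jmi on a B6;129S2 background, whereas the labels name C57BL/6J for all mice. Both groups carry the allele in every cell, so the pair compares laser with control within 1 genotype. The WT laser and WT control libraries, made from C57BL/6J mice in the same way, are given beside the Nr4a1-/- values, and the difference between genotypes was not tested.

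Each side is 1 library of pooled mice, so there are no replicates, the spread between animals is unknown and no test was made. Values are ratios of laser to control with exact 95% intervals that cover counting error only. The labels list the control library under a library number of its own, while the other 3 share 1, so within Nr4a1-/- library number and laser cannot be told apart. The laser library was the shallower, with 7545184 unique molecular identifiers (UMIs, each counting 1 captured transcript) against 13265758, a median of 3676 against 5478 UMIs per cell and 25.4% against 6.68% of cells under 2000 UMIs. The libraries shared 1 barcode. Cells with markers of B or T cells and of another lineage together made up 7.28% of laser and 8.81% of control cells.

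Nr4a1 transcripts (chr15:101254269-101274795, GRCm38) stood at 310 CPM (UMIs scaled to a library total of 1000000) in WT control and 278 in WT laser. They stood at 90.7 CPM (85.6 to 96.0) in Nr4a1-/- control and 54.9 (49.7 to 60.4) in Nr4a1-/- laser. Both Nr4a1-/- libraries were therefore below both WT libraries but not at 0. The tag counted lies at the 3' end of the transcript and may not cover the part that the allele disrupts. Of the other members of the family, Nr4a2 was at 1.04 times and Nr4a3 at 1.12 times its control level after laser.

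Cells were placed in lineage gates when at least 3 of 8 markers of a lineage were detected and led every other gate. In the laser library 86.3% of cells were placed, against 92.8% of control cells. Macrophages outside the microglia gate differed most in percentage points. They made up 27.1% of the laser cells (446 cells, 24.9 to 29.3%) and 9.90% of the control cells (200 cells, 8.63 to 11.3%), a ratio of 2.73 (2.31 to 3.24). The ratio in WT eyes was 2.06 (1.82 to 2.33). Dendritic cells, which carry antigen to T cells, were also a larger share after laser. Conventional type 2 dendritic cells (cDC2) were 5.94% against 3.32% (1.79 times, 1.30 to 2.48), and migratory dendritic cells were 17 against 5 cells (4.17 times, 1.48 to 14.4). Type 1 cells (cDC1) were 45 against 39 cells, with an interval of 0.900 to 2.23 that includes 1. The 3 dendritic cell gates together were 1.77 times their control share, and 2.29 times in WT eyes.

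Lymphocytes were the smaller share after laser. The B cell, T cell and natural killer (NK) cell gates together held 28.0% of laser and 49.7% of control cells (0.563 times, 0.503 to 0.629). B cells stood at 10.9% against 24.1% (0.454 times, 0.380 to 0.539), close to the WT ratio of 0.469. T cells stood at 10.25% against 16.6% (0.616 times, 0.509 to 0.743), whereas T cells in WT eyes stood at 1.03 times (0.914 to 1.16). NK cells stood at 0.754 times their control share (0.590 to 0.959). Neutrophils were 57 against 94 cells and classical monocytes 89 against 137, and both intervals include 1 (0.525 to 1.04 and 0.602 to 1.05). In cells thinned to 2000 UMIs, with 2 markers asked for, neutrophils stood at 0.413 times and classical monocytes at 1.04 times.

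Microglia, the resident macrophages of the retina, were 201 laser cells (12.2%) and 299 control cells (14.8%), a ratio of 0.824 (0.685 to 0.988). In WT eyes they were the larger share after laser (1.23 times, 1.09 to 1.39). Non-classical monocytes were nearly missing from both Nr4a1-/- libraries, with 3 control cells and 0 of 1649 laser cells, which allows a share of up to 0.182% with 0 read as 3 counts. WT eyes held 225 such cells in control and 144 after laser. Basophils or mast cells were 6 against 10 cells, and RPE cells, which the CD45 sort should exclude, were 3 against 17. Cells scored as cycling were 73 after laser and 16 in control (5.59 times, 3.22 to 10.3), and 2.38 times as frequent in WT eyes.

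**Figure D1:**
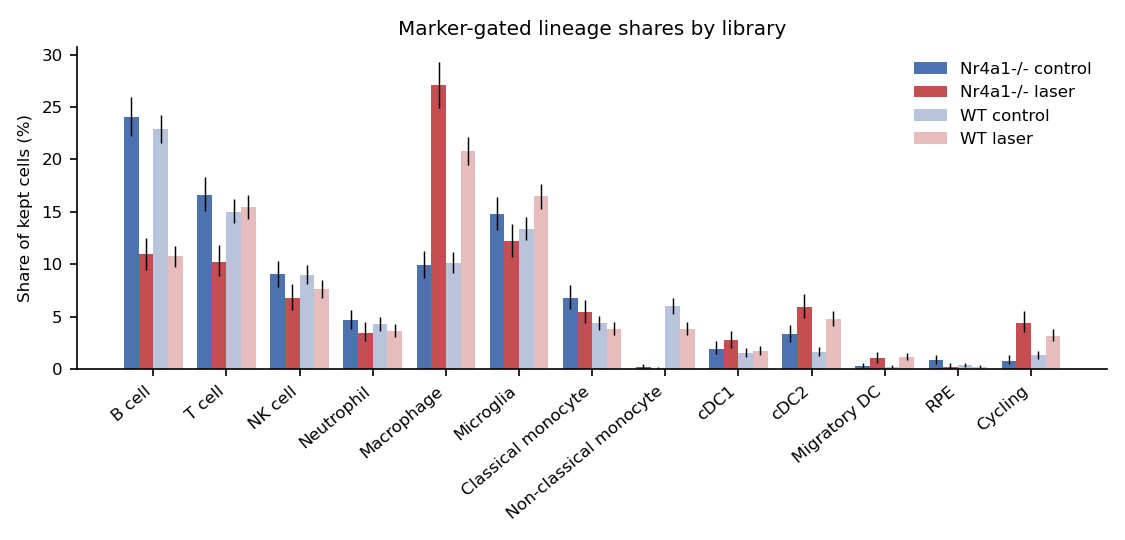
Share of kept cells (%) in each marker gate for the 4 libraries, with exact 95% binomial intervals as bars. The macrophage gate stands at 27.1% in Nr4a1-/- laser and 9.90% in Nr4a1-/- control, and the B cell gate at 10.9% and 24.1%; cycling cells are counted across gates.

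Because a gate needs detected markers, these shares can move with depth. Cells with too few markers were 9.46% of the laser and 4.46% of the control library (2.12 times), and tied cells were 4.25% and 2.72%. With every cell thinned to 2000 UMIs and 2 markers asked for, 1230 laser and 1885 control cells remained, macrophages stood at 3.15 times, B cells at 0.312 times and microglia at 0.907 times the control share.

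Across the summed transcripts of all CD45+ cells, 297 genes were at least 2-fold higher after laser, 2.53% of the 11757 genes with enough UMIs to be compared, and 558 (4.75%) were at least 2-fold lower. In WT eyes 2.63% of 14121 genes were higher and 4.29% lower. The median gene was at -0.11 on the log2 scale, so 34.7% of the calls were of higher genes. With libraries scaled by the median of the gene ratios, that share was 47.9%. In such sums more cells of a type and more RNA per cell cannot be told apart. When the gates were weighted to the control shares, 183 genes (1.61% of 11333) were higher and 257 (2.27%) lower. Of the 297 higher genes, 254 could be compared that way and 140 of these (55.1%) remained at least 2-fold higher. Of the 558 lower genes 460 could be compared and 141 (30.7%) remained at least 2-fold lower.

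Spp1 and Arg1 had the largest ratios among the 12 leading higher genes. Spp1, which encodes the secreted matrix protein osteopontin, stood at 28.3 CPM in control and 3121 CPM in laser. The ratio was 110.4 (99.7 to 123), and 63.5 with the gates held at control shares. In WT eyes Spp1 stood at 51.3 and 1287 CPM, 25.1 times. Arg1, the arginase of reparative macrophages, went from 8 UMIs (0.603 CPM) to 746 UMIs (98.9 CPM), 164 times (82.8 to 381). Both genes were thus low in each control library and high in each laser library.

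Fabp5, a carrier of fatty acids, stood at 62.0 CPM in control and 664 in laser (10.7 times, 9.95 to 11.5). Ccl8, a monocyte-attracting chemokine, stood at 11.3 and 141 CPM (12.5 times). Gpnmb, a glycoprotein of lysosome-rich phagocytes, stood at 33.9 and 224 CPM (6.59 times), and Apoc2, a cofactor of lipoprotein lipase, at 19.1 and 115 CPM (6.01 times). In WT eyes the ratios of these 4 genes were 7.66, 4.06, 9.52 and 1.43. Cd63, a tetraspanin of late endosomes, stood at 148 and 454 CPM (3.06 times), and AA467197 at 15.6 and 79.1 CPM (5.07 times). Ifitm1, an interferon-inducible membrane protein, was 6.42 times its control level, but its cells differed: 55.5% of its control UMIs lay in the neutrophil gate and 53.2% of its laser UMIs in the cDC2 gate.

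The last 3 of the 12 leading higher genes serve division or interferon defence. Top2a, the topoisomerase of dividing cells, stood at 19.4 and 71.2 CPM (3.67 times), and the linker histone gene Hist1h1b at 28.6 and 106 CPM (3.72 times). Iigp1, an interferon-induced GTPase, stood at 16.1 and 63.9 CPM (3.98 times). For Iigp1 and Hist1h1b the WT libraries stood the other way, at 0.663 and 0.708 times the control level.

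**Figure D2:**
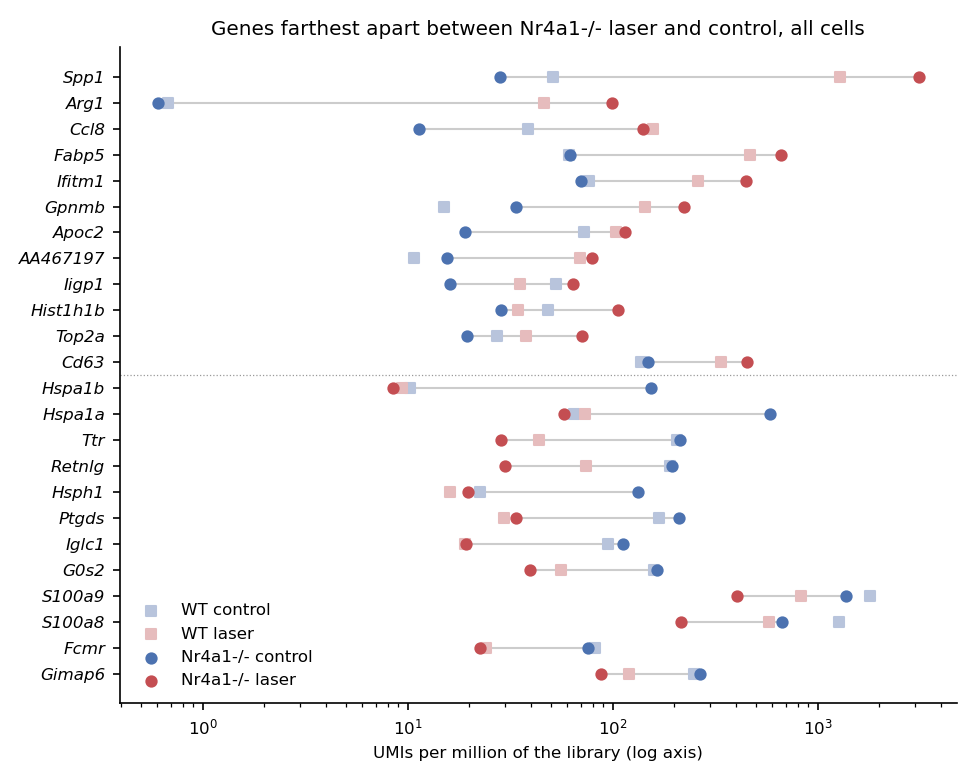
Level of the 12 higher and 12 lower leading genes in each library, in CPM on a log axis; circles are Nr4a1-/- and squares WT libraries, and the grey line joins the Nr4a1-/- pair. Spp1 runs from 28.3 to 3121, while Hspa1a stands at 585 and 57.8 in Nr4a1-/- and at 64.5 and 73.1 in WT libraries.

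The 12 leading lower genes were 3 chaperone genes, 2 ocular, 4 neutrophil and 3 lymphocyte genes. The chaperones Hspa1b, Hspa1a and Hsph1 are described further on. Ttr, the transthyretin that RPE makes, stood at 214 CPM in control and 28.5 in laser (0.133 times), and Ptgds, a prostaglandin D synthase of ocular tissue, at 212 and 33.9 CPM (0.160 times). Among neutrophil genes, Retnlg stood at 196 and 29.7 CPM (0.152 times), G0s2 at 165 and 39.5 (0.239 times), S100a9 at 1382 and 406 (0.294 times) and S100a8 at 670.0 and 215 (0.321 times). The WT ratios of these 6 genes ran from 0.174 to 0.462. Of the lymphocyte genes, the immunoglobulin light chain gene Iglc1 stood at 112 and 19.4 CPM (0.172 times), Fcmr, the IgM receptor, at 75.5 and 22.7 (0.3003 times) and Gimap6 at 267 and 87.7 (0.329 times).

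Laser and control were next compared within the macrophage gate, whose share of the library does not enter the values. The gate pools macrophages of different kinds, and their mix within it can still differ. The study reports that its monocyte-derived macrophage clusters came almost wholly from laser-treated eyes. In this gate a shift between kinds and a change within cells cannot be told apart. Of 8437 genes compared there, 372 (4.41%) were higher and 519 (6.15%) lower. Spp1 stood at 79.4 CPM in control and 7435 in laser (93.6 times, 76.7 to 115). In WT macrophages Spp1 stood at 76.05 times (61.55 to 95.12) and Arg1 at 71.4 times (24.35 to 347) the control level. In Nr4a1-/- eyes Spp1 was seen in 139 of 446 laser cells (31.2%) and 18 of 200 control cells (9.0%). In the control 1 cell held 51.0% of the UMIs. In B cells, which should lack it, Spp1 was seen in 6.67% of laser and 1.23% of control cells, at a median of 2021 and 4270 UMIs per cell against 5084 and 5778 in the macrophage gate. Laser neutrophils, at a median of 1757 UMIs, held Spp1 in 22.8% of cells. When cells were thinned to 2000 UMIs, it was seen in 23.8% of 21 neutrophils and 27.7% of 372 macrophages. The share of cells thus stood near that of another gate, though one with few cells. The level in neutrophils, 174 CPM, was 2.34% of that in macrophages. Arg1 had 0 control UMIs and 612 laser UMIs in 42 cells, at least 104-fold higher when 0 is read as 3 counts. The macrophage gate held 76.8% of all laser UMIs of Spp1 and 82.0% of those of Arg1.

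The other leading genes of macrophages after laser were Fabp5, Apoc2, Acp5, Syngr1, Ifitm1 and Ccl5. Fabp5 stood at 82.7 and 1570 CPM (19.0 times), Apoc2 at 13.8 and 229.9 CPM (16.7 times) and Acp5, a lysosomal acid phosphatase, at 14.6 and 157 CPM (10.8 times). Fabp5 was seen in 185 laser and 31 control cells, Apoc2 in 117 and 12, and Acp5 in 105 and 9. Syngr1, a vesicle protein, stood at 33.2 and 180.1 CPM (5.42 times). Ifitm1 was 16.2 times and the chemokine gene Ccl5 7.23 times its control level, each in 31 laser cells. In WT macrophages Fabp5 stood at 13.25, Apoc2 at 7.09, Acp5 at 5.59, Syngr1 at 3.69 and Ifitm1 at 65.6 times the control level. Ccl5 stood the other way in WT macrophages, at 127 CPM in control and 92.3 in laser. NK cells carried Ccl5 at 16796 and 16674 CPM, and all 4 of the genes of cytotoxic lymphocytes that could be compared in the macrophage gate were at least 2-fold higher there.

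Of the 17 fixed genes of Spp1 and Gpnmb phagocytes, 9 were at least 2-fold higher in the macrophage gate and 0 lower, with a median of 1.23 on the log2 scale against -0.09 over all genes of the gate. Lgals3, Ctsd and Trem2 stood at 2.70, 3.02 and 2.35 times, while Apoe, Itgax and Mmp12 were under 2-fold. This list had 10 higher of 17 over all cells, 10 of 17 in the microglia gate and, at far lower levels, 9 of 12 in the B cell gate, where Spp1 stood at 13.7 and 31.3 CPM.

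Genes of glycolysis were higher in macrophages after laser, with 8 of 14 at least 2-fold higher and 2 lower. Gapdh stood at 2.10, Pkm at 2.49, Pgk1 at 2.43, Tpi1 at 2.57, Aldoa at 2.70, Pgam1 at 3.00, Ldha at 2.01 and Pfkl at 5.58 times the control level. The glucose transporter gene Slc2a1 and the hexokinase gene Hk1 stood at 0.473 and 0.480 times. Hk2 stood at 0.821 times. Over all cells only Tpi1 and Pgam1 of this list passed 2-fold (2.60 and 2.21 times).

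Vegfa, the growth factor that drives new vessels, stood at 6.49 CPM in control macrophages (8 UMIs) and 75.3 in laser macrophages (183 UMIs), 11.6 times (5.77 to 27.3). In WT macrophages it stood at 7.55 and 57.8 CPM. In the NK cell gate Vegfa stood at 253 and 130 CPM, and in classical monocytes at 79.9 and 64.7. Over all cells it stood at 1.34 times the control level. Thbs1, a matrix protein that restrains vessels, stood at 101 and 467 CPM in macrophages (4.61 times) and at 1617 and 774 CPM in classical monocytes (0.479 times, 0.986 in WT). Mmp14, a membrane-bound matrix protease, stood at 37.3 and 74.9 CPM in macrophages (2.01 times). Of the 17 angiogenic and matrix genes compared, 5 were higher and 3 lower in macrophages, Pdgfb (0.307 times) and Plau (0.471 times) among the lower. Over all cells 5 of 17 were higher, with Mmp14 at 4.26, Timp1 at 5.13, Mmp12 at 2.50 and Mmp19 at 2.26 times.

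Some genes of control macrophages were lower after laser. Lyve1, Cd163 and Cd209g, scavenger and lectin receptors of resident macrophages, stood at 0.345, 0.450 and 0.399 times, and they were the 3 lower of 13 genes of that list. The adhesion gene Vcam1 stood at 102 CPM in control and 8.64 in laser (0.0846 times), the phosphatase gene Ptprm at 184 and 32.9 CPM (0.179 times) and Frmd6 at 121 and 20.6 CPM (0.170 times). In WT macrophages these 3 genes stood at 0.114, 0.154 and 0.328 times. Of 18 chemokine genes, Ccl8, Ccl5 and Cxcl14 were higher and Ccl3, Ccl4, Ccl24, Cxcl3 and Cxcl9 lower. Ccl3 stood at 1018 and 357 CPM and Ccl4 at 2527 and 965. Cxcl9 stood at 0.0732 times, but 91.8% of its control UMIs lay in 1 cell. Of the 10 MHC class II genes 1 was higher in macrophages (median 0.05), so the larger class II sum over all cells, 21929 against 13829 CPM, stood beside little difference in this gate.

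**Figure D3:**
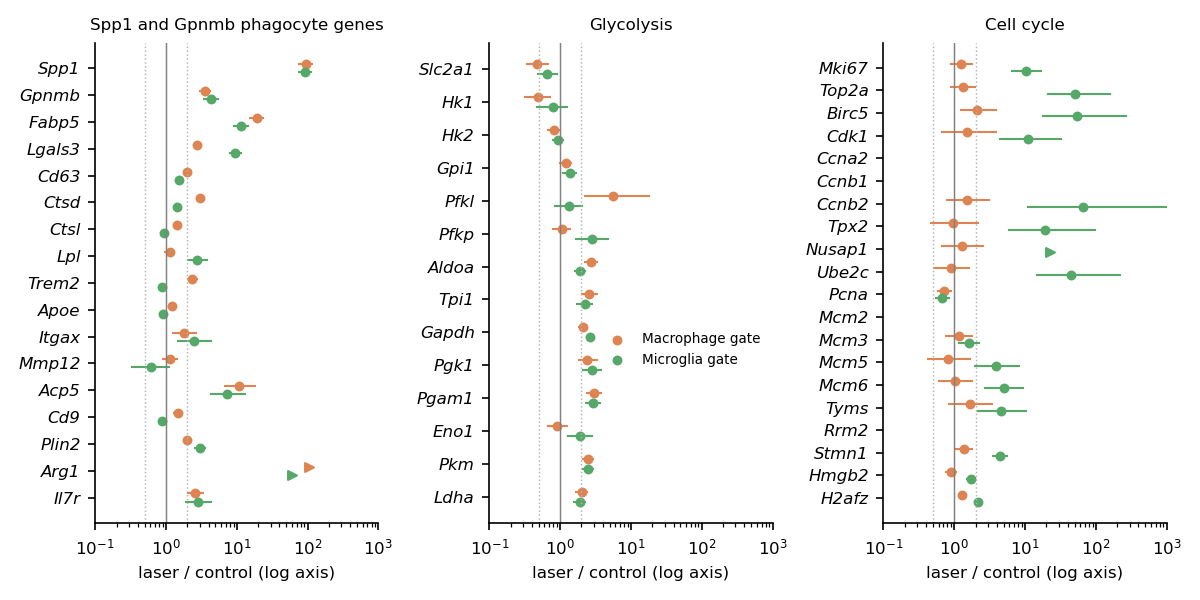
Ratio of laser to control on a log axis, with exact 95% intervals, for each gene of 3 fixed lists in the macrophage and microglia gates; a triangle is a lower bound where the control had 0 UMIs, and dotted lines mark 2-fold. Genes without enough UMIs are left blank. Of the phagocyte genes 9 of 17 (macrophage) and 10 of 17 (microglia) lie past 2-fold, and of the cell cycle genes 1 of 16 and 13 of 16.

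In the microglia gate after laser, 10 of 17 phagocyte genes and 13 of 16 cell cycle genes were higher. Genes of monocytes moved with them, with Ccr2 at 24.6 and 118 CPM (4.80 times) and Ly6c2 at 1 and 15 UMIs, and their part in the result was not tested. Of 8589 genes compared, 493 (5.74%) were higher and 476 (5.54%) lower. Spp1 stood at 43.8 CPM in control and 4019 in laser (91.8 times). It was seen in 55 laser and 11 control cells, and 40.5% of the laser UMIs lay in 1 cell. Fabp5 stood at 11.4, Lgals3 at 9.58, Acp5 at 7.36, Gpnmb at 4.27 and the lipid droplet gene Plin2 at 3.03 times, and Apoc2 stood at 7.78 and 175 CPM (22.5 times). Arg1 had 0 control and 85 laser UMIs, at least 60.0-fold higher. Ifitm1 stood at 158 CPM in 13 laser cells, against 2 UMIs in 1 control cell.

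Cycling cells were 19 of the 201 laser microglia (9.45%) and 0 of the 299 control microglia. In WT eyes they were 5.93% after laser and 1.39% in control. Top2a stood at 2.05 CPM in control and 103 in laser microglia (50.4 times, 21.01 to 158), from 4 and 24 cells. Birc5, a survival protein of mitosis, stood at 54.4 times and Mki67, the Ki-67 antigen, at 10.3 times, and Nusap1 went from 0 to 32 UMIs (at least 22.6-fold). In the macrophage gate cycling cells were 4.48% and 2.50%, and only Birc5 passed 2-fold. Over all cells 14 of 20 cell cycle genes were higher, Ccnb1 at 7.28, Birc5 at 5.28 and Tpx2 at 5.08 times among them.

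Genes of undisturbed microglia were lower in the microglia gate after laser, 5 of 13 at least 2-fold and 0 higher. P2ry12, Siglech, Sall1, Gpr34 and Tmem119 are also markers that place a cell in this gate. Their values therefore depend on how the cells were placed, while P2ry13 is not such a marker. The purinergic receptor genes P2ry12 and P2ry13 stood at 666 and 284 CPM (0.427 times) and at 150 and 70.2 CPM (0.469 times). Siglech stood at 0.433, the transcription factor gene Sall1 at 0.418 and Gpr34 at 0.468 times, while Tmem119 stood at 0.566 times. WT microglia stood at 605 and 271 CPM for P2ry12. Bmp2, a bone morphogenetic protein, stood at 251.3 CPM in control and 26.0 in laser (0.103 times), from 55 and 12 cells. Of 17 chemokine genes 3 were higher and 6 lower, with Ccl8 at 11.5 and 149 CPM. Of 14 glycolysis genes 6 were higher and 0 lower.

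The heat shock chaperones, which refold damaged proteins under the control of heat shock factor, were lower in the laser library in 7 of the 8 gates compared. Over all cells 8 of 14 were at least 2-fold lower and 0 higher, with a median of -1.07 on the log2 scale. Hspa1a and Hspa1b, which encode the inducible HSP70, stood at 585 and 57.8 CPM (0.0987 times, 0.0894 to 0.109) and at 154 and 8.48 CPM (0.0550 times). Hsph1, which encodes HSP110, stood at 133 and 19.8 CPM (0.149 times). The WT libraries stood at 64.5 and 73.1 CPM for Hspa1a and at 22.6 and 16.1 CPM for Hsph1. The Nr4a1-/- control library was thus high and the other 3 libraries low. In microglia Hspa1a also differed between the WT libraries, at 223 CPM in control and 122 in laser. In B cells and T cells the WT ratio of Hspa1a stood the other way, at 2.46 (1.44 to 4.25) and 2.43 (1.22 to 5.18) times. The Nr4a1-/- control is also the library with its own number, and the part of handling, genotype and laser in this difference was not tested.

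The promoters of the 3 chaperone genes are shown because these genes stood apart together in so many cell types. Each runs from 250 bases before to 50 after the transcription start (RefSeq, GRCm38.p6, minus strand, 5' to 3'). Capitals mark GAANNTTC or TTCNNGAA, pairs of the 5-base unit that heat shock factor binds. Both motifs read the same on either strand, and matches may overlap.
Hspa1a, chr17:34972107-34972406: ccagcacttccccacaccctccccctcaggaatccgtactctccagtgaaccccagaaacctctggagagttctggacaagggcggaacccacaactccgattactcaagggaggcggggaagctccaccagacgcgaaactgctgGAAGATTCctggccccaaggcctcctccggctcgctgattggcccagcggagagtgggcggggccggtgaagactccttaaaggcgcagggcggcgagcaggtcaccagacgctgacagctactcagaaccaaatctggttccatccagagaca
Hspa1b, chr17:34959189-34959488: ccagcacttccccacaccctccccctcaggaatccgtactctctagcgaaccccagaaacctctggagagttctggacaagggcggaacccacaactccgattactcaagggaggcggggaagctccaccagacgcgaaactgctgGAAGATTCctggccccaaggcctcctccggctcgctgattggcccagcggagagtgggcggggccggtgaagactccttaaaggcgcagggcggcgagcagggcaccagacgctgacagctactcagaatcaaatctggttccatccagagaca
Hsph1, chr5:149636287-149636586: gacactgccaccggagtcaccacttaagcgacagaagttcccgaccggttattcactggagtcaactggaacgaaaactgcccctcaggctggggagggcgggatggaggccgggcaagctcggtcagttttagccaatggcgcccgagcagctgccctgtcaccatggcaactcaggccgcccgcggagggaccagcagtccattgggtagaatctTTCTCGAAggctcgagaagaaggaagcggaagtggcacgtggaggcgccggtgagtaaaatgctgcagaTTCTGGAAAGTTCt
The Hspa1a and Hspa1b windows differ at 4 of 300 bases (98.7% identical), and reads of these near-identical neighbours may have been split between them, so their separate values are uncertain. One of the motifs was present in the promoters of 9 of the 11 listed chaperone genes with an entry, of 17.0% of 27025 genes and of 15.1% of 32851 promoters. It was present in 6 of the 7 chaperone genes at least 2-fold lower and in 3 of the other 4. A match is a description of the letters and not a bound site.

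By cell type, Hspa1a stood at 1159 CPM in control and 94.6 in laser macrophages and at 979 and 98.8 CPM in microglia. It stood at 543 and 21.5 CPM in B cells, at 138 and 15.3 in T cells, at 173 and 3.16 in NK cells, at 401 and 16.2 in classical monocytes and at 1015 and 48.0 in cDC2. Control cells were above laser cells in all 7 of these gates. Of the listed chaperones, 8 of 14 were at least 2-fold lower in macrophages, 9 of 14 in microglia, 7 of 13 in B cells, 6 of 13 in T cells, 3 of 12 in NK cells, 4 of 12 in classical monocytes and 6 of 12 in cDC2. In neutrophils 0 of 6 were lower and 1 was higher. Hsp90aa1 (0.465 times over all cells), Dnajb1 (0.369) and Bag3 (0.322) were among the lower, whereas Hspa8 (0.982), Hspa5 (1.01) and Hsp90ab1 (0.891) stood near 1. Hspb1 went from 245 UMIs to 1, with 82.6% of the control UMIs of the macrophage gate in 1 cell. The 21 immediate-early and dissociation stress genes had 0 members past 2-fold over all cells (median -0.29). Within gates this list stood both ways, with 8 of 21 higher in B cells, 5 of 18 in T cells and 4 of 19 in neutrophils, and 4 of 21 lower in microglia and 3 of 18 in NK cells.

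**Figure D4:**
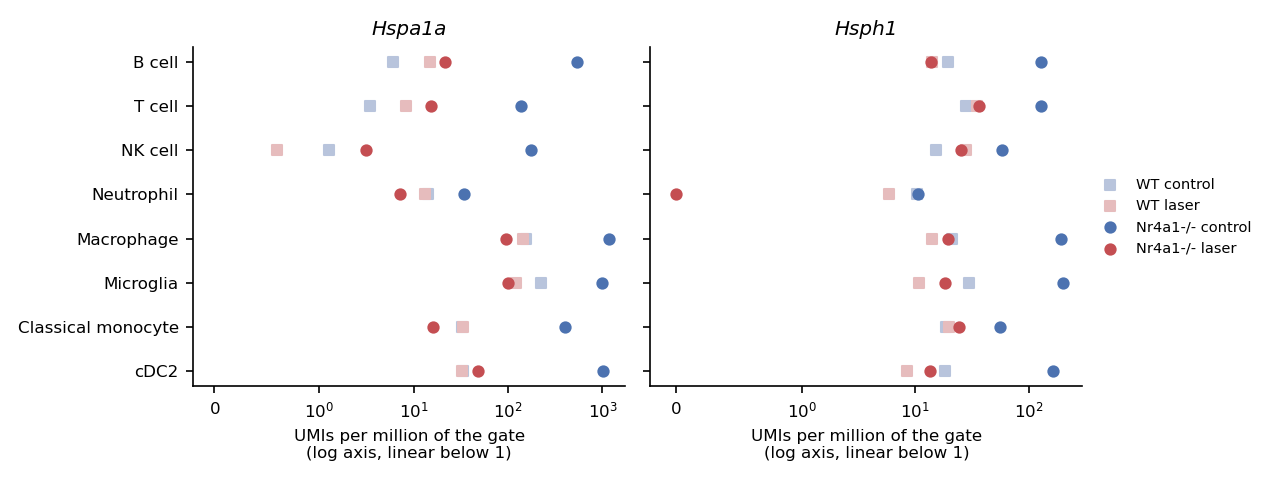
Level of Hspa1a and Hsph1 in 8 gates of each library, in CPM of the gate on a log axis that is linear below 1. The Nr4a1-/- control circle lies to the right of the other 3 libraries in each gate for both genes, for Hspa1a at 979 in microglia against 98.8 in Nr4a1-/- laser.

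Of 7926 genes compared in the B cell gate, 333 (4.20%) were higher and 297 (3.75%) lower. Iglc1 stood at 625 CPM in control and 225 in laser B cells (0.360 times), and it was the only 1 of 7 immunoglobulin genes lower there, while 6 of 7 were lower over all cells (Igkc 0.379, Ighd 0.393 and Iglc2 0.359 times). The 4 leading higher genes lay in few cells. C1qb, a complement gene of macrophages, stood at 36.3 and 399 CPM, from 47 control and 17 laser cells, which is 1.28% and 12.7% of the macrophage level. Retnla, the granzyme gene Gzma and Fabp5 were higher in 8, 5 and 14 laser cells.

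In the T cell gate 315 of 7392 genes (4.26%) were higher and 328 (4.44%) lower. The MHC class II genes H2-Eb1 and Cd74 stood at 32.1 and 948 CPM and at 112 and 2088 CPM, the latter from 79 control and 27 laser cells. Il1b stood at 299.6 CPM in 12 laser cells and Il1r2 at 124 CPM in 8 laser cells. These are genes of myeloid and B cells and lay in few cells. Among the genes lower, Myb, a transcription factor, stood at 150 and 45.8 CPM (0.306 times) and the adenosine kinase gene Adk at 536 and 225 CPM (0.420 times). WT T cells also stood below control for both, at intervals ending at 0.765 and 0.6997.

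NK cells were the lymphocyte gate with the fewest calls, 125 higher (2.28%) and 156 lower (2.85%) of 5482 genes. Cell cycle genes led those higher, from few cells, with Hist1h1b at 18.9 and 601 CPM in 10 and 7 cells and Mki67 at 5.55 and 142 CPM in 4 and 6 cells. Pclaf and Hist1h3c had 0 control UMIs and lay in 4 laser cells each. Icam1, an adhesion receptor, stood at 336 and 149 CPM (0.442 times), Rgs1, a brake on chemokine receptors, at 399 and 165 (0.412 times) and the cytokine receptor gene Il21r at 119 and 28.5 (0.240 times). Gzma was nearly level in NK cells, at 11740 and 11942 CPM. Of 12 cytotoxic genes over all cells, Gzmk was higher (2.72 times) and Gzmb lower (0.465 times), with Prf1 at 0.567 and Ifng at 1.80 times.

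Neutrophils, the shallowest gate with 57 laser and 94 control cells, had the highest rate of calls, 12.2% higher and 9.88% lower of 2733 genes. Chemokine genes were higher, with Ccl3 at 84.2 and 1187 CPM in 13 and 27 cells and Ccl4 at 42.1 and 912 CPM in 6 and 23 cells. Cxcl1, which attracts neutrophils, went from 0 to 45 UMIs in 6 cells. Granule genes were lower, 5 of 10. S100a8, S100a9, Retnlg and others of this list are also markers of the gate, so their values depend on how the cells were placed. Lcn2 and Asprv1 are not gate markers. Lcn2, the iron-binding lipocalin, stood at 858 and 130 CPM (0.152 times), Asprv1 at 579 and 72.4 (0.125 times) and S100a9 at 46852 and 18591. Ebf1 and Igkc, genes of B cells, were in 10 and 8 control neutrophils and in 0 and 1 laser neutrophils. Rgs1 was in 3 and 8 cells. Of 76 ribosomal protein genes 16 were higher in this gate, and 0 over all cells.

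Classical monocytes had 120 higher (1.91%) and 217 lower (3.46%) of 6277 genes. The largest ratios rested on few cells. S100a9 was in 3 laser cells and Retnla in 4, with 87.4% of the Retnla UMIs in 1 cell. Lyz1 was in 7 cells, and 82.9% of the laser Spp1 UMIs lay in 1 of 13 cells. Thbs1, described above, was seen in 121 control and 65 laser cells, and Dusp2, a phosphatase of MAP kinases, stood at 197 and 76.8 CPM (0.389 times) from 76 and 17 cells. Gm9733 stood at 118 and 40.4 CPM (0.344 times).

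Ifitm1 led the higher genes of cDC2, at 55.5 CPM in control and 2707 in laser (48.8 times, 36.7 to 66.4). It was seen in 17 of 67 and 67 of 98 cells. WT cDC2 stood at 54.8 and 1776 CPM. Ifitm1 also went from 0 to 189 UMIs in cDC1 and from 0 to 71 in migratory dendritic cells, in 12 and 10 laser cells. In cDC2 Epcam, an adhesion molecule, stood at 5.78 and 148 CPM in 4 and 33 cells. Cyp7b1, an oxysterol hydroxylase, stood at 4.62 and 110.9 CPM in 2 and 22 cells. Ccl5 was 26.7 times higher with 77.7% of its laser UMIs in 1 cell. Lyz1 stood at 524 and 1.499 CPM from 5 and 1 cells, and the monocyte gene Ly6c2 at 131 and 7.495 CPM (0.0574 times). Of 5547 genes 271 (4.89%) were higher and 386 (6.96%) lower.

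Ocular transcripts that reach the sort were lower after laser. All 8 RPE genes compared were at least 2-fold lower and their summed level was 349 CPM in control and 42.5 in laser (0.122 times). Rpe65, the visual cycle isomerase, went from 455 UMIs to 5 and Dct, a pigment enzyme, from 227 to 6. In WT eyes the sum stood at 289 and 67.4 CPM. Of 13 photoreceptor genes 8 were lower. Red cell genes stood at 1.73 and 1.46 CPM and none was deep enough to compare. Of 12 endothelial and stromal genes 3 were compared, and Dcn, a fibroblast proteoglycan, was higher (11 and 49 UMIs).

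The remaining gene lists had few members past 2-fold over all cells. Of 15 interferon genes Ifit3 (2.11 times) and Ifi44 (3.69 times) were higher, with Rsad2 at 1.95 and Usp18 at 1.78. Of 14 hypoxia genes Ndrg1 and Hilpda were higher (2.01 and 2.02 times), Egln1 and Pdk1 stood at 0.583 and 0.596 times and Hif1a itself at 1.01 times. In the macrophage gate 4 of 11 hypoxia genes were higher and 0 lower (median 0.49, against -0.09 over all genes of the gate). In microglia 0 of 9 were higher and 1 was lower. Of 16 complement genes over all cells Cfb (6.64 times), Cfp (2.24 times) and Itgax (2.40 times) were higher. Cd55 (0.365 times) and Cr2 (0.348 times) were lower. Of 10 cytokine genes Il1rn, the interleukin 1 receptor antagonist, was higher (2.14 times) and Il6 lower (0.236 times), and Il1b and Il1a stood at 1.45 and 0.745 times. Of 20 chemokine genes Ccl8, Cxcl14 and Cxcl16 were higher. The 2 higher of 13 resident macrophage genes were Timd4 and Clec4n, against 3 lower in the macrophage gate. The 10 MHC class II and 13 mitochondrial genes had 0 members past 2-fold.

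Of further genes that the study names, Cd68 stood at 2.26, Aif1 at 1.78, Ccr2 at 1.42, Cxcl2 at 1.61, H2-Eb1 at 1.89, Csf1 at 1.83, Igf1 at 1.49, Flt3 at 1.501, C1qa at 1.28, Cd36 at 1.30, Cybb at 1.17 and Cxcr4 at 1.21 times the control level over all cells. Within the macrophage gate Igf1, Cd36 and C1qa stood below control, at 0.638, 0.611 and 0.845 times, and Cd36 and C1qa stood at 0.507 and 0.857 times in microglia. Cybb stood at 0.875 times in macrophages. Cxcl2 stood at 0.9735 times in macrophages (0.934 to 1.015) and 0.532 in microglia, but at 2.17 in neutrophils and 2.20 in classical monocytes. Tnf stood at 0.558 times in macrophages and 0.566 in microglia, but at 2.33 in T cells, 2.07 in classical monocytes and 8.81 in neutrophils. Tnf stood over all cells at 0.890, Nav2 at 0.833, Nav3 at 0.854, Ly6c2 at 0.850, Spn at 0.661 and Ace at 0.570 times. Il12b stood at 1.16 times with an interval that includes 1 (0.946 to 1.41), and Nos2 had 1 control and 11 laser UMIs.

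Antibody-derived tags (ADT), barcodes on antibodies that count surface proteins on the same cells, were measured for 87 proteins. Tags have 0 isotype controls here, so no background is set. In 6 control and 12 laser cells more than 5000 tag UMIs were counted, and these cells held 29.7% and 39.4% of all tag UMIs, so shares are given over cells with up to 5000. Of 86 tags compared, 28 (32.6%) were at least 1.5-fold higher and 20 (23.3%) lower, and with every cell kept 26 (30.2%) and 21 (24.4%). These counts depend on the scaling: centred log-ratios gave 1 higher and 8 lower, and shares without the CD45 tag 16 and 33. CD45, the tag of the sort, took 22.3% of control and 12.97% of laser tag UMIs (0.581 times), and the other shares move with it.

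MHC class II (I-A/I-E) was the most abundant tag higher after laser, at 16.3% of control and 31.5% of laser tag UMIs (1.94 times), with its gene H2-Ab1 at 1.68 times and the WT tag at 2.11 times. CD11c, an integrin of dendritic cells and some macrophages, stood at 0.0555% and 0.683% (12.3 times, 11.01 to 13.8), with its gene Itgax at 2.40 times. The WT share of CD11c stood at 0.492% and 0.452%, so the Nr4a1-/- control library was the low one. In cDC2 the median cell had 0 CD11c UMIs in control and 2 in laser. CD40 stood at 6.49 times (gene 1.43), the lysosomal protein CD107a at 4.26 times (gene 1.49) and Notch4 at 4.55 times, with 64.6% of its laser UMIs in 1 cell. CD357, CD339 and CD170 stood at 3.05, 2.59 and 2.28 times. The genes of the first 2, Tnfrsf18 and Jag1, stood at 0.671 and 0.98 times. P2Ry12 stood at 2.95 times, whereas its gene stood at 0.420 times. CD54 stood at 1.77 times, whereas its gene Icam1 stood at 0.737 times.

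Of the tags lower after laser, CD23, the IgE receptor of B cells, stood at 0.140 times and its gene Fcer2a at 0.302 times. VISTA stood at 0.234 times, CD4 at 0.304, CD106 at 0.323, F4/80 at 0.357, ly108 at 0.378 and CD43 at 0.447 times. CD103 stood at 0.204 times, while its gene Itgae stood at 2.08 times, and F4/80 stood against its gene Adgre1 at 1.43 times. In WT eyes CD4 stood at 1.16, CD103 at 1.81 and CD106 at 20.7 times. CD23 stood there at 0.229, VISTA at 0.514, F4/80 at 0.279, ly108 at 0.779 and CD43 at 0.826 times. For CD4, CD103 and CD106 the Nr4a1-/- control library, which has its own library number, held the highest share. These shares were 1.237%, 0.6257% and 0.5596%, against 0.3765%, 0.1275% and 0.1805% in Nr4a1-/- laser. The part of library and laser in these 3 ratios was not tested. Of the lineage tags, CD3 stood at 1.13, NK-1.1 at 0.697, Ly-6G at 0.523, Ly-6C at 1.17, CX3CR1 at 1.52 and CD64 at 0.749 times. The genes Cd3e, Klrb1c, Cx3cr1 and Fcgr1 stood at 0.554, 0.570, 0.681 and 1.81 times. CD64 lay on the other side of 1 from its gene. CD3 and CX3CR1 did so by this share, but by centred log-ratios they differed by -0.10 and -0.03, on the side of their genes. Within gates the tags followed the gate names, with median CD90.2 at 124.5 and 43 UMIs in T cells, Ly-6G at 36 and 7 in neutrophils and Ly-6C at 10 and 3 in classical monocytes, and each was lower in the shallower laser library.

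**Figure D5:**
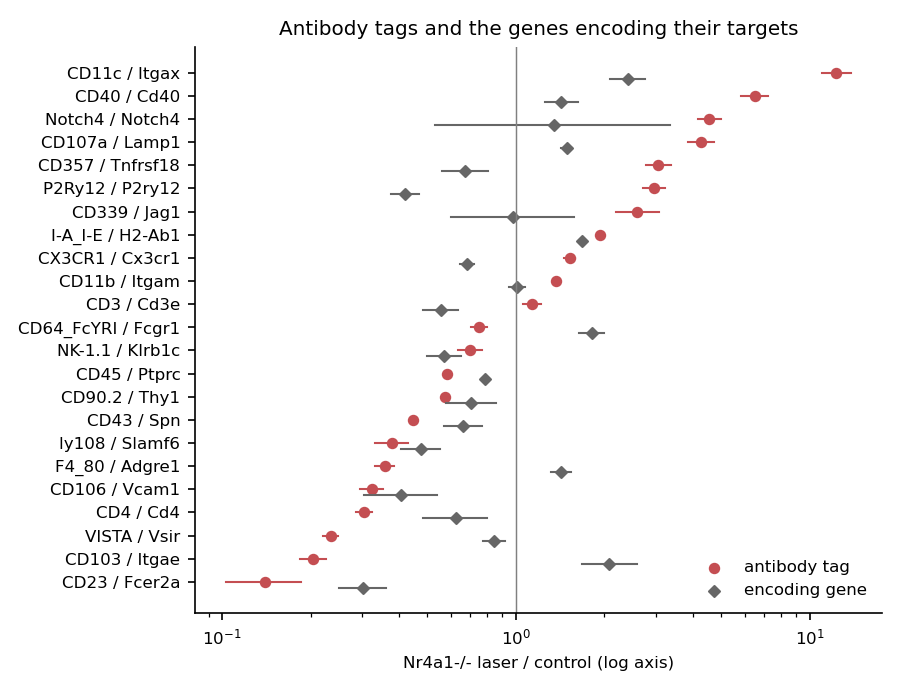
Ratio of laser to control in Nr4a1-/- eyes on a log axis, with exact 95% intervals, for antibody tags (cells with up to 5000 tag UMIs) and for the genes that encode their targets over all cells. CD11c stands at 12.3 for the tag and 2.40 for the gene, while CD103 and P2Ry12 stand on opposite sides of 1 for tag and gene.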

How the data were processed

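Single-cell RNA and antibody tag libraries were made from live CD45+ cells of retina and choroid. The authors mapped reads to mm10 with Cell Ranger 7.0.1 (per the labels) and deposited raw UMI counts of 32285 genes and 87 tags per cell, with no normalization. The methods name the 3' v3 kit and the labels the v2 kit. The genotype and treatment fields of the tag libraries all read the same, so these were grouped by title. The members and lists were chosen with earlier results of these data known.

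Barcodes were kept if 200 to 5000 genes were detected and mitochondrial UMIs did not exceed 15% (7545184 laser and 13265758 control UMIs), and no doublet caller was run. Counts were summed over all cells or per gate and scaled to CPM, with exact conditional binomial intervals for ratios, Clopper-Pearson intervals for shares and Poisson intervals for single levels (95%, counting error only). A count of 0 was read as 3. Genes were compared with 50 UMIs in both libraries together (30 within a gate) and called at 2-fold, tags with 50 UMIs at 1.5-fold. Gates with at least 50 cells in each library were compared (8 gates). Named were the 12 genes per direction whose interval lay farthest from 1 (8 in macrophages, 4 in other gates, up to 8 tags, up to 4 per list), with at least 50 CPM (100 within a gate) in the higher library, gate markers left out, and the genes the study names. Further list members within gates were named after their values were seen. The lists keep genes that are also gate markers. On simulated counts for 11747 genes at these depths, 98% of 50 genes changed 3-fold and 100% of 50 changed 4-fold were called, with 16 of 11547 unchanged genes (0.139%). The simulation drew independent counts for the all-cell sums, without UMIs crowded in single cells, shifts in lineage mix or differences between libraries. These rates thus hold for counting error only, and gates were not simulated. The scripts used scipy 1.17.1, numpy 2.4.6, matplotlib 3.10.9 and pandas 2.3.3 under Python 3.11.15, with positions from GENCODE M21. Some items that the naming rule selects are not reported here.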

Additional observations from a re-analysis of the deposited data

Results flagged for a closer look

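For these results the Nr4a1-/- and WT ratios of laser to control lay on opposite sides of 1. The difference between genotypes was not tested, since each group is 1 library. The microglia share stood at 0.824 times control in Nr4a1-/- and 1.23 times in WT eyes, and cells with too few markers at 2.12 and 0.637 times. Over all cells Iigp1 stood at 3.98 and 0.663 times and Hist1h1b at 3.72 and 0.708 times.

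Hspa1a stood at 0.0987 times over all cells in Nr4a1-/- and 1.13 times in WT eyes. In the B cell gate Hspa1a stood at 0.0396 times (2.46 in WT) and Hspa1b at 0.0239 times (3.08 in WT), and in the T cell gate Hspa1a stood at 0.110 times (2.43 in WT). The Nr4a1-/- control library, which has its own library number, held the high values.

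In single gates, Ccl5 stood at 7.23 times in Nr4a1-/- macrophages and 0.727 times in WT macrophages. Gzma stood at 11.4 times in the B cell gate, from 5 laser cells, and 0.758 times in WT. In classical monocytes S100a9 stood at 124 times, Retnla at 54.2 times and Lyz1 at 7.53 times, from 3, 4 and 7 laser cells, against 0.123, 0.314 and 0.570 times in WT. Ly6c2 in cDC2 stood at 0.0574 times, and 2.17 times in WT.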

How the results depend on the processing

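No paired analysis was possible because each group is 1 library, and for the same reason no replicate could be left out. Of 224 alternative values 162 stayed within their spread or within 1.5 times the count, 62 moved and 0 reversed. A value can cross 1 within its spread. The share ratio of classical monocytes went from 0.796 (0.602 to 1.05) to 1.04 with thinning and 2 markers. By kind, 85 of 90 share ratios, 52 of 72 values of named genes and 15 of 20 all-cell counts stayed. Of 32 gene counts within gates 5 stayed and 27 moved, so the counts within gates hold for these settings only. The number of genes compared sets the counts: with no minimum beyond 1 UMI 3070 genes were higher and 1832 lower over all cells, with a minimum of 200 UMIs 125 and 241, and in the macrophage gate with a minimum of 100 UMIs 139 and 226. With cells thinned to 2000 UMIs 195 genes were higher over all cells. With thinning and 2 markers, the share ratios were 0.312 for B cells, 0.413 for neutrophils, 2.70 for cDC2, 2.43 for the 3 dendritic cell gates and 0.475 for B, T and NK cells together. For tags, centred log-ratios gave 1 higher and 8 lower, leaving out the CD45 tag 16 and 33, and the mean over cells, added after seeing the data, 13 lower. Without cells carrying markers of B or T cells and another lineage, also added after seeing the data, 279 genes were higher and 585 lower and the macrophage share ratio was 2.59. Thinning, with fewer cells and UMIs, took Arg1 to 57.5 times and Ptgds to 0.00523 times, and the direction of every named gene stayed. Depth limits the laser library most, and gates under 100 cells give wide intervals.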
